A study of Mus musculus with 12 samples.

Results

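Olfactory receptor transcripts were followed in RNA-seq of mouse sperm. The members were chosen by their counts: rows of the sperm table whose symbol starts with Olfr and whose counts, summed over all 6 sperm libraries, reach 60. The rule kept 37 of 1359 olfactory receptor rows, in a table of 51826 rows. Because the sum includes both genotypes, a member can owe its place to the genotype in which it is high. Of the members 26 had at least 30 counts in each genotype, 10 only in Xap5l KO sperm and 1 only in WT sperm. The 10 were Olfr703, Olfr19, Olfr1389, Olfr787, Olfr13, Olfr325, Olfr412, Olfr31, Olfr24 and Olfr981. The same symbols were then looked up in a testis table that the rule did not use.

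Sperm came from the cauda epididymis of P56 mice, 3 libraries from WT mice and 3 from mice with a global CRISPR-Cas9 knockout of Xap5l (Xap5l KO, a single line). Testes came from P16 mice, 3 libraries from WT and 3 from Xap5 cKO mice, in which a floxed Xap5 was removed by Stra8-GFPCre, a knockin that drives Cre in germ cells, so that somatic cells of the testis keep the gene. The study describes the controls of the cKO as Xap5 fl/Y, and the floxed and knockout lines were made on a C57BL/6J background. The study set these genotypes side by side to learn which transcripts depend on Xap5l and on Xap5, a pair of related nuclear proteins of the male germ line.

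Olfactory receptors are seven-transmembrane receptors coupled to G proteins. In the nose each sensory neuron chooses a single receptor gene, and binding of an odorant activates the G protein subunit encoded by Gnal, the adenylyl cyclase Adcy3 and a cyclic nucleotide-gated channel. Transcripts of some olfactory receptors have long been known in testis and sperm, where a role of a few of them in sperm swimming has been studied.

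Totals per library were 32251198 to 36759054 counts in testes. The Xap5l KO sperm libraries were deeper, from 43373223 to 52308452 counts, than the WT sperm libraries, from 38881197 to 41716085. Fam50b, the listed symbol of Xap5l, was counted 574, 440 and 419 times in WT sperm against 18, 23 and 8 times in the knockouts. Fam50a, the listed symbol of Xap5, was counted 819, 811 and 988 times in WT testes against 673, 616 and 651 times in the cKO (log2 fold change -0.33, adjusted p = 0.0495, edgeR). The TMM factors were 0.821 in WT replicate 1 and 0.808 in Xap5l KO replicate 1 and between 1.08 and 1.12 in the other 4 sperm libraries. Markers of sperm and elongating spermatids summed to between 53800 and 144000 counts scaled to library size (CPM) in the sperm libraries. Markers of the epididymal epithelium summed to between 4230 and 8080 CPM. Most of this was Crisp1, with means of 6200 CPM in WT and 4580 in Xap5l KO sperm, and only 6 of these 12 markers were tested. Of 9 olfactory epithelium markers, 6 were too low to be tested in sperm, and the list summed to between 2.58 and 4.25 CPM.

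The receptors share a stretch around the aspartate, arginine and tyrosine (or phenylalanine) that close the third transmembrane helix. A script found its codons in 32 of the 35 annotated coding sequences of members. The stretches are shown here for members on which the results turn, from GENCODE M21 transcripts on GRCm38, 5′ to 3′ on the coding strand, with the 3 codons in capitals.
Olfr733 (chr14:50298927-50298956, minus strand): atggcctttGACCGCTACattgccatctgc
Olfr275 (chr4:52825750-52825779, plus strand): atggcctatGACAGGTATgtggccatctgt
Olfr701 (chr7:106818436-106818465, plus strand): atggcctatGATAGGTATgtggccatttgt
Olfr19 (chr16:16673599-16673628, minus strand): atggcctatGACCGATATgtggcaatctgt
Olfr316 (chr11:58758018-58758047, plus strand): atgtcctatGACAGGTATatagccatctgc
Olfr1033 (chr2:86041662-86041691, plus strand): atggcttttGACAGGTACatggcaattgga
The letters printed for Olfr733 are the same in Olfr732, its neighbour on chromosome 14. A shared stretch of this length is shorter than a read. How the authors treated reads with several matches is not given in the sources used here. The share of a member's exonic 50-base stretches that also occurs in another gene had a median of 3.6% over members and was above 10% in 10 of them.

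Olfactory receptor rows took a small part of each sperm library. Their share was 0.00771%, 0.00585% and 0.00494% of all counts in WT replicates 1 to 3 against 0.00736%, 0.00653% and 0.00969% in Xap5l KO replicates 1 to 3, with means of 0.00617% ± 0.00141 and 0.00786% ± 0.00164 (SD, n = 3 each). The 2 genotypes overlapped in this share. Without Olfr733, the most abundant row, it was 0.00543%, 0.00453% and 0.00382% in WT against 0.00641%, 0.00553% and 0.00695% in Xap5l KO sperm. On these plain library totals each Xap5l KO value exceeded each WT value. On TMM-scaled library sizes all olfactory receptor rows took 94.0 CPM in WT replicate 1, of which Olfr733 was 27.8. They took 58.2 CPM in Xap5l KO replicate 2, of which Olfr733 was 8.87. On that scale WT replicate 1 stayed above Xap5l KO replicate 2 without Olfr733. Of the 1359 rows, 671 had no count, 557 had 1 to 9 counts and 94 had 10 to 59. The members held 14962 of the 18914 counts, or 79.1%, and the 2 most abundant members, Olfr733 and Olfr275, held 45.3% of the members' counts.

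The rows below the threshold were also followed as a sum. On plain library totals they took 12.8, 11.7 and 9.78 CPM in WT replicates 1 to 3 against 25.1, 15.2 and 14.1 CPM in Xap5l KO replicates 1 to 3, without overlap. On TMM-scaled library sizes, a scale added after the data were seen, the values were 15.6, 10.8 and 8.81 CPM in WT against 31.0, 13.5 and 12.7 CPM in Xap5l KO sperm, and WT replicate 1 then lay above Xap5l KO replicates 2 and 3. Xap5l KO replicate 1 stood highest, with 394 olfactory receptor rows that had a count, against 193 to 257 in the other 5 libraries. In the same library the members made up 65.9% of the olfactory receptor counts, against 76.8% to 85.4% in the others.

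**Figure D1:**
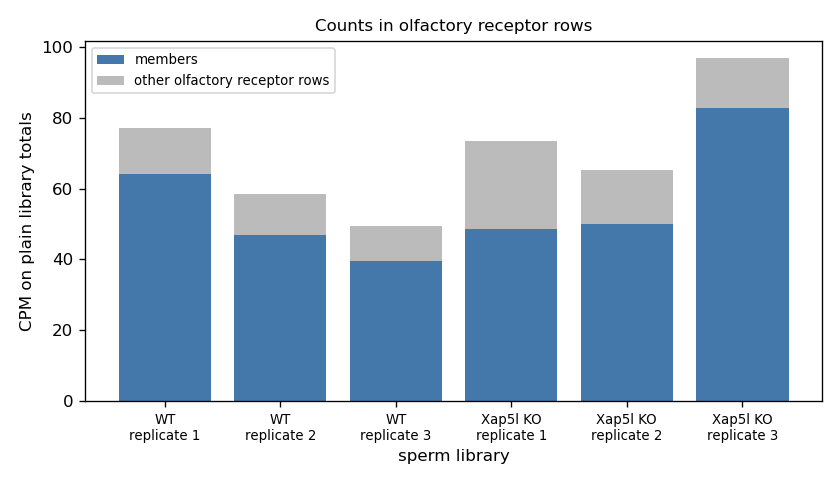
Counts in olfactory receptor rows as CPM on plain library totals (vertical axis) in each sperm library (horizontal axis), split into the members and the rows below the threshold of 60 counts. The rows below the threshold take 9.78 to 12.8 CPM in the WT libraries and 14.1 to 25.1 in the Xap5l KO libraries, and the totals of the 2 genotypes overlap, as do the rows below the threshold on TMM-scaled library sizes.

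Among chemosensory families the sperm table held 7 of 227 vomeronasal type 2 receptor rows, 2 of 318 vomeronasal type 1 receptor rows and none of 40 bitter taste or 16 trace amine-associated receptor rows at 60 or more counts. The share of rows kept was 2.72% for olfactory receptors and 3.08% for vomeronasal type 2 receptors.

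Olfr733 and Olfr275 stood far above the other members. Olfr733, on chromosome 14 from 50295891 to 50301522 with up to 4 exons in a transcript, had 917, 514 and 470 counts in WT against 409, 491 and 1430 in Xap5l KO sperm. Olfr275, on chromosome 4 from 52814604 to 52828269, had 630, 404 and 291 counts in WT against 302, 251 and 663 in Xap5l KO sperm. For both genes WT replicate 1 and Xap5l KO replicate 3 were the highest of their genotype, and the genotypes overlapped. Scaled to library size by TMM, Olfr733 had 16.7 ± 9.66 CPM in WT against 15.0 ± 8.36 in Xap5l KO sperm, and Olfr275 had 11.7 ± 6.66 and 8.18 ± 3.44 (mean ± SD, n = 3 each). The log2 fold change was -0.15 (standard error (SE) 0.447) for Olfr733 and -0.51 (SE 0.428) for Olfr275, and neither passed the test. Both directions rest on WT replicate 1, without which the values were 0.42 and 0.03, and that of Olfr733 also on Xap5l KO replicate 2, without which it was 0.12.

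Per kilobase of annotated exon, the level in WT sperm was 4.54 CPM for Olfr733 and 3.45 for Olfr275, followed by 0.956 for Olfr316 and 0.508 for Olfr732. Olfr733 had more counts than Olfr275 in every sperm library, and the difference between these genes was not tested. The lowest member was Olfr24 at 0.0113 CPM per kilobase. Of the 37 members, 15 had 200 or more counts in all and 12 had under 100. Olfr24, Olfr482 and Olfr981 lay just inside the threshold at 60 counts, and Olfr1393, Olfr271-ps1 and Olfr317 just outside at 57, 55 and 54.

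**Figure D2:**
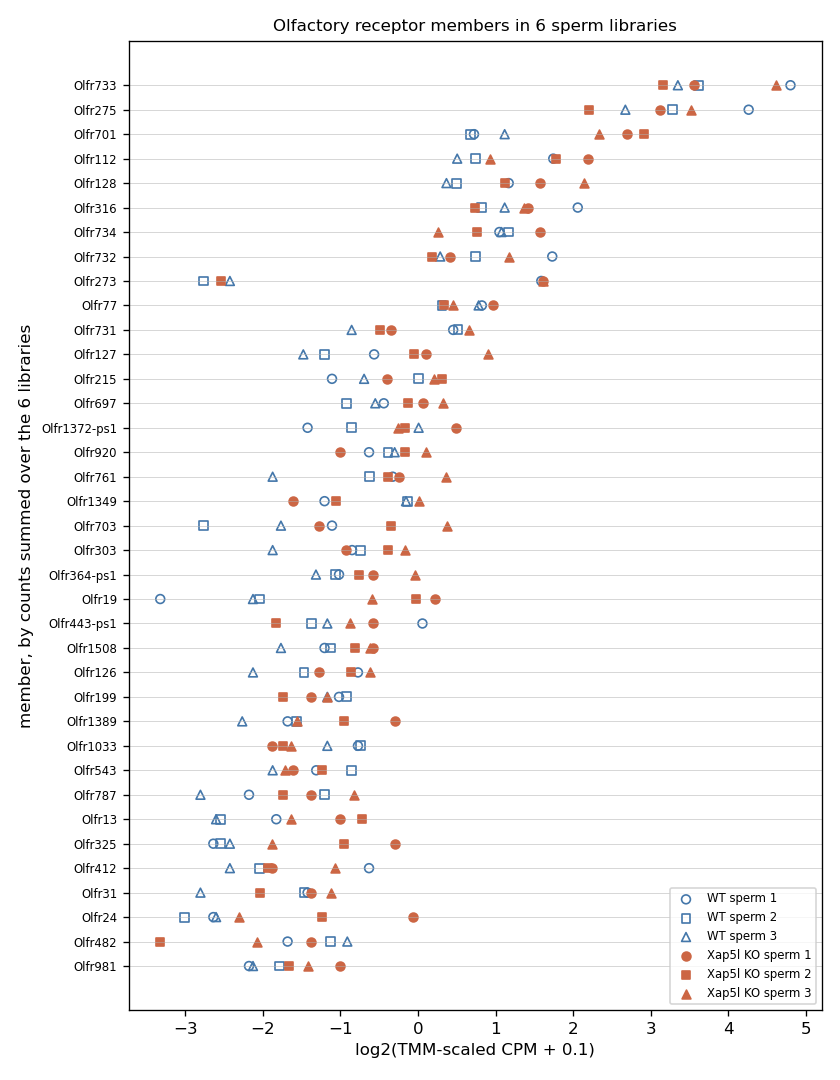
Levels of the 37 members (vertical axis, by summed counts) on the scale log2(TMM-scaled CPM + 0.1) (horizontal axis) in 3 WT (open blue) and 3 Xap5l KO (filled orange) sperm libraries. Olfr733 and Olfr275 lie to the right of most members, the Olfr701 libraries fall into separate ranges by genotype, and Olfr273 is low in 3 libraries and high in the other 3 across genotypes.

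Between WT and Xap5l KO sperm 3 members rose and none fell. Olfr701, Olfr127 and Olfr19 were called higher, at an adjusted p under 0.05 and a fold change above 2, among 31 members that passed the filter on low counts. This is 9.68% of the members tested, beside 7.59% of all 20945 genes tested, so the share was near the background. The background for genes called lower was 1.27%. The count of 0 called lower came from edgeR. DESeq2 also called none lower, and 1 member, Olfr1033, was lower at an unadjusted p under 0.05 and a fold above 2, a step that 2.89% of all genes tested passed. DESeq2 called 5 members higher, adding Olfr128 and Olfr703.

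Olfr701 had the smallest SE of the tested members. It is a receptor gene on chromosome 7 from 106814129 to 106821472, with up to 5 exons in a transcript and 0.4% of its 50-base stretches shared, most with Olfr706. It had 51, 63 and 96 counts in WT against 223, 412 and 287 in Xap5l KO sperm. Every Xap5l KO library was above every WT library. The level was 1.71 ± 0.318 CPM in WT against 6.24 ± 1.26 in Xap5l KO sperm (mean ± SD, n = 3 each), a log2 fold change of 1.87 (SE 0.272, adjusted p = 0.0122, edgeR's quasi-likelihood test). With 1 library left out at a time the log2 fold change stayed between 1.72 and 2.09, and leaving out either WT replicate 2 (adjusted p = 0.0734, edgeR), WT replicate 3 (0.0812) or Xap5l KO replicate 2 (0.0565) ended the call. Over all genes at most 2 were still called in a direction without any of these 3 libraries.

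Next to Olfr701 lies a transcript on the other strand that moved the same way. The long noncoding RNA 4930458B22Rik starts at 106814102 on the minus strand, so that 26 bases lie between the 2 annotated starts. The 250 bases before Olfr701 (chr7:106813879-106814128, plus strand, GRCm38.p6, from RefSeq) are shown because both transcripts start here, with the bases between the starts in capitals.
Olfr701 upstream: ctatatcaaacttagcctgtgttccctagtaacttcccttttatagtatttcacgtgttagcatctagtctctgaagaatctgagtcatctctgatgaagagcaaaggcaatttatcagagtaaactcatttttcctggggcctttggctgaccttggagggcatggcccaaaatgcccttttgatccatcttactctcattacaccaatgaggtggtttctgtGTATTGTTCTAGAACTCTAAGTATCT
4930458B22Rik had 10, 15 and 17 counts in WT against 53, 40 and 78 in Xap5l KO sperm, also without overlap. Its log2 fold change was 1.78 (SE 0.411, adjusted p = 0.0275, edgeR), and it was singled out after its values were seen. It lost the call in 4 of the 6 fits with a library left out.

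Olfr127 had 19, 14 and 12 counts in WT against 34, 48 and 103 in Xap5l KO sperm. Every Xap5l KO library was above every WT library, with Xap5l KO replicate 3 highest. Its log2 fold change was 1.65 (SE 0.457, adjusted p = 0.0459, edgeR), and only the fit without WT replicate 1 kept the call. Of its 50-base stretches 13.25% also occur elsewhere, most in Olfr126, so its counts are uncertain among these copies. Its coding sequence is 94.0% identical to that of Olfr761 and 93.7% to that of Olfr126.

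Olfr19 had 0, 6 and 6 counts in WT against 37, 49 and 33 in Xap5l KO sperm. It passed the rule for members only through the Xap5l KO libraries, in which it was high. It is on chromosome 16 from 16672228 to 16676405 and shares 121 exonic bases with the pseudogene Gm44932 on the same strand, which had 2 counts in all. The groups did not overlap, and the log2 fold change was 3.08 (SE 0.681, adjusted p = 0.0238, edgeR). The call was lost in 4 of 6 fits with a library left out, the exceptions being WT replicate 1 and Xap5l KO replicate 3.

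Other members sat near these values without passing the test. Olfr703 had 12, 2 and 9 counts in WT against 11, 38 and 70 in Xap5l KO sperm, for a log2 fold change of 1.91 (SE 0.69, adjusted p = 0.09, edgeR). Olfr13 had 6, 3 and 3 against 14, 28 and 13, a log2 fold change of 1.85 (SE 0.614, adjusted p = 0.0733, edgeR). Olfr128 had 71, 55 and 55 against 101, 115 and 251, a log2 fold change of 1.0 (SE 0.364, adjusted p = 0.0911, edgeR). In Olfr703 and Olfr128 the genotypes overlapped after scaling, and in Olfr13 they did not. Olfr703 and Olfr13 met the rule for members only through the Xap5l KO libraries, in which they were high. The differences in Olfr703 and Olfr13 are therefore no support for a change.

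**Figure D3:**
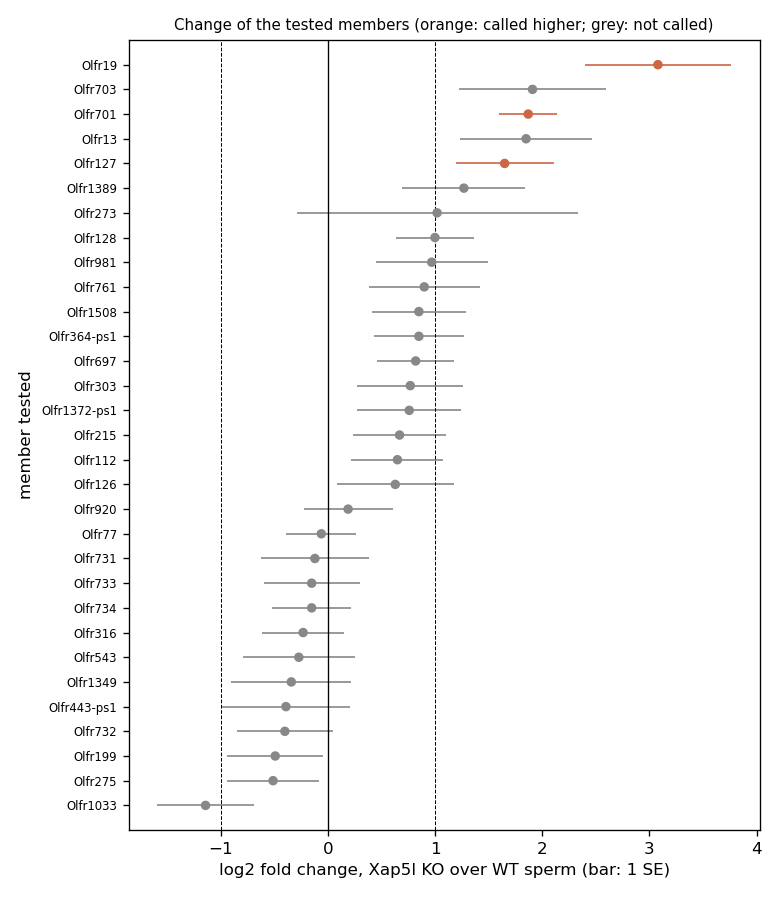
Log2 fold change of Xap5l KO over WT sperm (horizontal axis) with its SE (bars) for the 31 tested members (vertical axis), with dashed lines at a fold of 2. Olfr19, Olfr701 and Olfr127 (orange) were called higher, and Olfr1033 at -1.14 is the lowest.

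Over the 31 tested members the log2 fold change ran from -1.14 to 3.08 with a median of 0.67, beside a median of -0.08 over all genes tested. It was above 0 in 19 members and below 0 in 12, while 45.7% of all genes tested lay above 0. With at least 10 counts required in every library the members' median was -0.03. In 9 members, or 29.0% of those tested, every Xap5l KO library was above every WT library, beside 19.2% of all genes, and in 2 members, Olfr199 and Olfr1033, or 6.45%, every Xap5l KO library was below, beside 19.2% of all genes. These values describe the members that passed the filter. They are no support for a change of the group, since the rule used these same counts. Of the tested members Olfr703, Olfr19, Olfr1389, Olfr13 and Olfr981 reached 30 counts only in Xap5l KO sperm.

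The 6 members that the filter left out were Olfr787, Olfr325, Olfr412, Olfr31, Olfr24 and Olfr482. Olfr24 had 2, 1 and 3 counts in WT against 30, 18 and 6 in Xap5l KO sperm. Its mean CPM was at least 5.65-fold higher in Xap5l KO sperm when each WT library is set to a floor of 3 counts. Olfr325 had 2, 3 and 4 counts in WT against 25, 23 and 10 in Xap5l KO sperm, also without overlap of the counts. Of its 50-base stretches 29.59% are shared, most with Olfr329-ps. Olfr24 and Olfr325 passed the rule for members only through the Xap5l KO libraries, in which they were high. Their differences are therefore no support for a change. Olfr482 was lower in counts in the knockouts, with 7, 15 and 20 against 10, 0 and 8 counts, and 44.4% of its 50-base stretches are shared, most with Ramac.

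Markers of other cells and stages were followed in the same sperm libraries. Of 8 round spermatid markers 5 were called higher in Xap5l KO sperm, and the list summed to between 524 and 844 CPM in WT and between 1010 and 1300 in Xap5l KO libraries, with no marker at 0. Of 8 pachytene spermatocyte markers 2 were called higher, with sums between 431 and 646 CPM in WT and between 1060 and 1290 in Xap5l KO libraries. Most of this was Ldhc, with means of 345 CPM in WT and 713 in Xap5l KO sperm, and Hspa2, with 102 and 325. Piwil1, Sycp3 and Mybl1 of the same list had log2 fold changes of -0.97, -0.34 and -0.17. Over all genes tested in sperm 7.59% were called higher and 1.27% lower. Of 10 leukocyte markers 3 were called lower, with sums between 943 and 1060 CPM in WT and between 256 and 627 in Xap5l KO libraries. Of the 8 Sertoli cell markers 1, Cldn11, was called lower. Their sums went the other way, between 647 and 763 CPM in WT and between 1060 and 1330 in Xap5l KO libraries. Most of this was the widely expressed Clu, with means of 687 and 1200 CPM, which was not called. The 12 epididymal markers summed to between 5960 and 8080 CPM in WT and between 4230 and 5880 in Xap5l KO libraries, with Lcn9 at 0. Most of this was Crisp1, which overlapped between genotypes, and none of the 6 tested was called. The part of these lists in the members' changes was not tested, and in bulk RNA more cells of a kind and more RNA per cell cannot be told apart.

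Members that lie near each other in the genome were summed, since receptor genes stand in clusters. Joining members within 300000 bases gave 6 clusters, which held 18 members. On chromosome 14, Olfr731, Olfr732, Olfr733 and Olfr734 held 36.4% of the members' counts. Their summed level was 34.3, 17.3 and 13.7 CPM in WT and 16.5, 12.1 and 29.3 in Xap5l KO sperm, which overlap. In this cluster Olfr733 and Olfr732 are 93.6% identical in their coding sequences, while the lowest identity within it is 58.3%.

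Olfr731 and Olfr732 were low beside Olfr733 and did not follow the genotype. Olfr732 had 106, 66 and 52 counts in WT against 43, 57 and 126 in Xap5l KO sperm, and Olfr731 had 42, 56 and 21 against 24, 34 and 86. Olfr734 had 65, 90 and 93 counts in WT against 101, 88 and 64 in Xap5l KO sperm. Their log2 fold changes were -0.40, -0.12 and -0.15 for Olfr732, Olfr731 and Olfr734, and none passed the test.

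On chromosome 7, Olfr697, Olfr701 and Olfr703 summed to 2.55, 1.97 and 2.85 CPM in WT and 7.62, 8.94 and 7.28 in Xap5l KO sperm. The genotypes did not overlap, and Olfr701, called on its own, held 1132 of the 1485 counts of this cluster. Olfr697 alone had 21, 18 and 27 counts against 33, 45 and 67, a log2 fold change of 0.82 (SE 0.362, adjusted p = 0.145, edgeR). Olfr112, Olfr126, Olfr127, Olfr128 and Olfr761 lie on chromosome 17. They summed to 7.16, 4.02 and 3.06 CPM in WT and 9.37, 7.38 and 9.61 in Xap5l KO sperm, again without overlap. Over single genes, 19.2% of all tested had every Xap5l KO library above every WT library. The coding sequences of this cluster are between 84.7% and 94.0% identical. Olfr112 had 107, 66 and 61 counts in WT against 156, 184 and 105 in Xap5l KO sperm, and its genotypes overlapped after scaling.

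**Figure D4:**
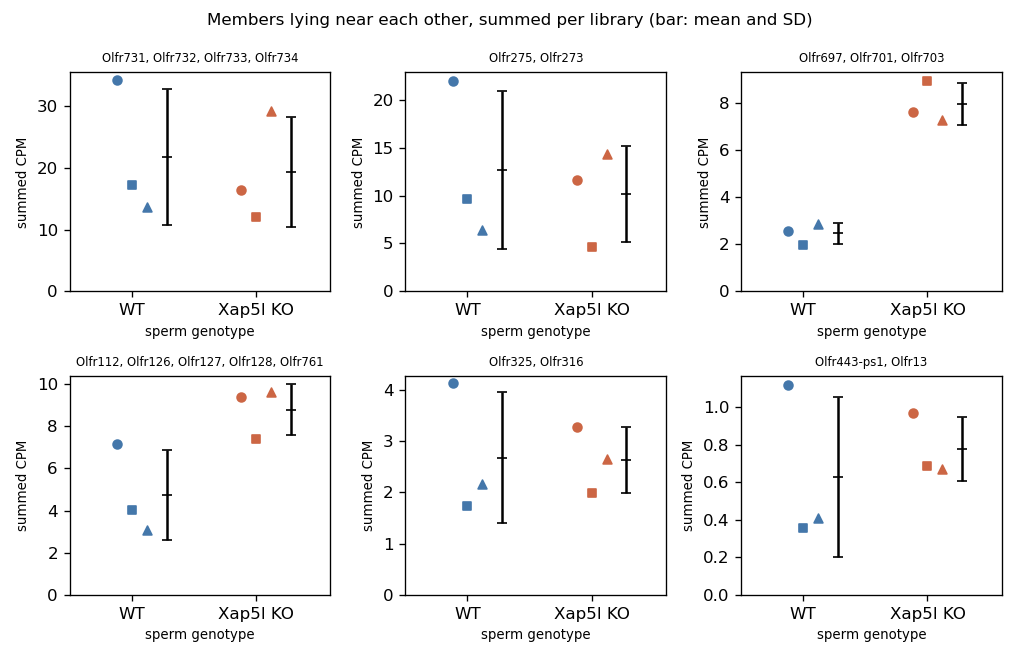
Summed TMM-scaled CPM (vertical axes, each starting at 0) of members within 300000 bases of each other in WT (blue) and Xap5l KO (orange) sperm, a point per library, with the mean and SD of 3 libraries as bars. The chromosome 7 cluster with Olfr701 and the chromosome 17 cluster with Olfr127 do not overlap between genotypes, and the other 4 clusters do. Most counts of the chromosome 7 cluster are those of Olfr701.

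Olfr273, the neighbour of Olfr275 on chromosome 4, split the libraries in another way. It had 96, 2 and 4 counts in WT against 104, 4 and 173 in Xap5l KO sperm. WT replicate 1, Xap5l KO replicate 1 and Xap5l KO replicate 3 were high, at 2.91 to 2.97 CPM, and the other 3 libraries were at 0.0475 to 0.0863 CPM. The log2 fold change was 1.02 with an SE of 1.31, and with 1 library left out it ran from 0.43 to 4.82. Olfr275 had at least 251 counts in each of the 6 libraries, the 3 low ones included.

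Olfr77, on chromosome 9, was among the steadiest members. It had 55, 48 and 75 counts in WT against 65, 64 and 74 in Xap5l KO sperm, for a log2 fold change of -0.06 (SE 0.328). Its exons share 387 bases with Gm7808, a pseudogene on the opposite strand that had no count. Olfr316, on chromosome 11, had 134, 70 and 96 counts in WT against 90, 87 and 144 in Xap5l KO sperm, for a log2 fold change of -0.23 (SE 0.38).

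Most members were not seen in the testes of P16 mice. Of the 37 members 34 are listed in the testis table, and 25 of these had no count in any of the 6 testis libraries, among them Olfr733, Olfr275 and Olfr701. A count of 0 allows up to 3 counts, or 0.0816 to 0.093 CPM in these libraries. Another 3 members had 1 to 9 counts, 2 had 10 to 59 and 4 had 60 or more. The tables of the 2 tissues were made and scaled separately, so their levels were not tested against each other, and tissue, age and table cannot be told apart.

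The 4 members with 60 or more counts in testes were Olfr1033, Olfr316, Olfr920 and Olfr1349. These 4 were also the members tested there. None was called higher in Xap5 cKO testes and 1, Olfr316, was called lower. The background of all 16821 genes tested was 4.15% called higher and 10.9% called lower. DESeq2 also called none higher, and none reached an unadjusted p under 0.05 with a fold above 2 in that direction.

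Olfr316 fell in Xap5 cKO testes. It had 130, 126 and 86 counts in WT against 20, 14 and 25 in Xap5 cKO testes, with no overlap. The level was 3.24 ± 0.764 CPM in WT against 0.597 ± 0.175 in Xap5 cKO testes (mean ± SD, n = 3 each), a log2 fold change of -2.43 (SE 0.378, adjusted p = 0.000617, edgeR). The call held in each of the 6 fits with a library left out, between -2.64 and -2.21. Olfr316 shares 14.98% of its 50-base stretches, most with Olfr318, whose coding sequence is 96.0% identical, so its counts are uncertain between the copies. In the same testes 5 of 8 pachytene spermatocyte markers were called lower, beside 10.9% of all genes tested. They summed to between 2120 and 3130 CPM in WT and between 842 and 1150 in Xap5 cKO libraries, with none at 0. Of 8 round spermatid markers 4 were called lower, with sums of 535 to 751 CPM in WT and 258 to 375 in Xap5 cKO libraries. Of 8 spermatogonia markers 2 were called lower, with sums of 709 to 803 and 465 to 502 CPM. The part of these lists in the fall of Olfr316 was not tested.

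Olfr1033 was the most abundant olfactory receptor row in testes. There it had 615, 571 and 673 counts in WT against 987, 872 and 1083 in Xap5 cKO mice, for a log2 fold change of 0.76 (SE 0.135, adjusted p = 0.00131, edgeR). This is below the fold of 2, and 25.0% of all genes tested were higher at an adjusted p under 0.05 at any fold. In sperm it had 16, 21 and 16 counts in WT against 6, 11 and 13 in Xap5l KO mice, for a log2 fold change of -1.14 (SE 0.449, adjusted p = 0.113, edgeR). Per kilobase of exon its level was 4.12 CPM in WT testes and 0.104 in WT sperm. Olfr1033 held 58.2% of all 8250 olfactory receptor counts in testes. Of 8 Sertoli cell markers 1 was called higher in Xap5 cKO testes, beside 4.15% of all genes tested. They summed to between 4700 and 5100 CPM in WT and between 7870 and 9380 in Xap5 cKO libraries, with none at 0. Of 6 Leydig cell markers 3 were called higher, with sums of 193 to 336 CPM in WT and 389 to 737 in Xap5 cKO libraries. Of 10 leukocyte markers 6 were called higher, with sums of 104 to 154 and 218 to 287 CPM, and S100a8 and S100a9 at 0. The part of these lists in the difference in Olfr1033 was not tested.

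**Figure D5:**
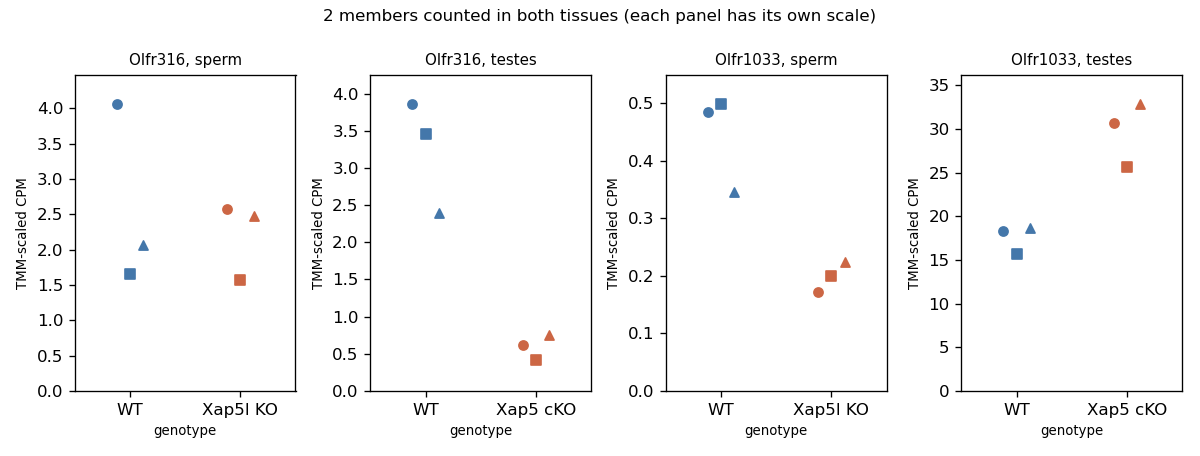
TMM-scaled CPM (vertical axes, each with its own scale from 0) of Olfr316 and Olfr1033 in sperm and in testes, a point per library, WT in blue and the mutant in orange. In testes Olfr316 is lower and Olfr1033 higher in all Xap5 cKO libraries, while in sperm Olfr316 overlaps between genotypes and Olfr1033 is lower in all Xap5l KO libraries.

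Olfr920 and Olfr1349 were low in both tissues. In testes Olfr920 had 10, 16 and 20 counts in WT against 16, 2 and 4 in Xap5 cKO mice, for a log2 fold change of -0.93 (SE 0.815), and in sperm 18, 28 and 33 against 14, 44 and 57. Olfr1349 had 13, 9 and 15 counts in WT against 11, 0 and 13 in Xap5 cKO testes. Neither passed the test in either tissue. Over the 4 members tested in testes the median log2 fold change was -0.72, beside -0.01 over all genes.

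Genes that carry the olfactory signal were partly present. Of 15 such genes 14 are listed in the sperm table and 12 were tested, of which 2 rose in Xap5l KO sperm, beside the 7.59% of all genes called higher, with a median log2 fold change of 0.283 against -0.08 over all genes. The pair that rose were phosphodiesterases, enzymes that break down cyclic nucleotides. Pde4a had 565, 555 and 476 counts in WT against 2669, 3929 and 1336 in Xap5l KO sperm, for a log2 fold change of 2.07 (SE 0.415, adjusted p = 0.019, edgeR). Pde1c had 607, 626 and 575 against 1353, 2115 and 1309, a log2 fold change of 1.12 (SE 0.264, adjusted p = 0.0293, edgeR). Both lost the call in 4 of 6 fits with a library left out. Gnb1, a G protein beta subunit found in most cells and the most abundant gene of the list, had a log2 fold change of -0.59 (SE 0.194, adjusted p = 0.0727, edgeR). Gnal had means of 3.82 CPM in WT and 4.17 in Xap5l KO sperm, and Adcy3 had 0.948 and 1.53. Of the channel genes Cnga2 had 0.521 and 0.491 CPM and Cnga4 had 0.711 and 1.79. None of these was called. Gng13 had 2 counts in WT replicate 2 and 0 in every other sperm library.

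In Xap5 cKO testes 1 of 12 tested genes of this list fell, beside 10.9% of all genes. Pde1c had 2573, 2250 and 1348 counts in WT against 215, 248 and 287 in Xap5 cKO testes, for a log2 fold change of -2.95 (SE 0.25, adjusted p = 2.9e-05, edgeR), which kept its call in all 6 fits with a library left out.

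Of 20 genes for receptor trafficking and for the choice of a receptor gene, 17 were tested in sperm, with a median log2 fold change of 0.0869. Only Reep2, of a family that helps receptors reach the cell surface, was called, higher in Xap5l KO sperm with a log2 fold change of 1.22 (SE 0.346, adjusted p = 0.049, edgeR), and 5 of 6 fits with a library left out lost it. Reep6 was the most abundant of the list, with 120532, 67785 and 105421 counts in WT and 219292, 208708 and 118441 in Xap5l KO sperm, which did not pass (log2 fold change 0.68, SE 0.475).

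In testes 16 genes of this list were tested and 3 were called lower, Ebf2, Ebf3 and Ebf4, beside the 10.9% of all genes called lower there. They encode early B cell factors, transcription factors that act on receptor genes in the nose. Ebf1, of the same family, had 468, 498 and 645 counts in WT against 845, 889 and 1019 in the cKO, higher without overlap but below a fold of 2 (log2 fold change 0.87, adjusted p = 0.000966, edgeR). Ebf3 had 931, 1040 and 1179 counts in WT against 335, 343 and 335 in Xap5 cKO testes, for a log2 fold change of -1.54 (SE 0.124, adjusted p = 2.5e-05, edgeR). Ebf4 had a log2 fold change of -1.40 (SE 0.24, adjusted p = 0.0011, edgeR) and Ebf2 of -2.07 (SE 0.693, adjusted p = 0.0313, edgeR), of which Ebf2 lost the call in 4 of 6 fits with a library left out. The receptor chaperones Rtp1 and Rtp2 were at 0 in all testis libraries.

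Sequences before the receptor genes were searched for 5 short motifs on both strands. RefSeq windows from 250 bases before to 50 after the gene start on GRCm38.p6 exist for 27 members, of which 14 lie within 10 bases of a GENCODE start. The homeodomain site TAATTA was present in 7 windows, or 25.9%, beside 18.6% of 948 olfactory receptor windows and 5.3% of 32851 windows of all genes. The letters CCCNNGGG, the core bound by early B cell factors, were in 3.7% of the members' windows, 3.1% of olfactory receptor windows and 13.7% of all windows. The X-box motif GTTGCC was in 11.1% of the members' windows, beside 5.6% and 12.5%, and the motifs TGACGTCA and GTAAACA were in none of the 27, beside 0.1% and 5.9% of olfactory receptor windows and 1.8% and 3.6% of all windows. The window of Olfr701 held none of the 5.

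The closest genes of other kinds did not all move with the members. Each member's nearest tested gene that is no olfactory receptor was looked up, which gave 26 genes, at a median of 140643 bases from the members. Of these 6 were called higher in Xap5l KO sperm, beside 7.59% of all genes tested. For Olfr701 the neighbour is 4930458B22Rik, described above. For Olfr275 and Olfr273 it is Nipsnap3a, which had 140, 167 and 155 counts in WT against 439, 657 and 612 in Xap5l KO sperm (log2 fold change 1.59, adjusted p = 0.0118, edgeR), beside the overlap of both receptors. For Olfr127 and the other members on chromosome 17 it is H2-M3, with a log2 fold change of -0.13 (SE 0.444).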

How the data were processed

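Poly(A) RNA of 12 libraries in 4 groups of 3 was sequenced as paired reads of 150 bases. Per the labels and methods the authors used Trimmomatic 0.36, HISAT2 2.1.0 on GRCm38, StringTie and DESeq2 1.12.4. The deposited values are raw counts, whole numbers for each gene, in a separate table for sperm and for testes. The counting tool, the use of strand and the treatment of reads with several matches are not given in the sources used here.

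Each table was filtered with filterByExpr, scaled by TMM and fitted with edgeR 4.0.16 (quasi-likelihood test of genotype, no other term). P-values were adjusted by Benjamini-Hochberg over all genes tested. A gene was called at an adjusted p under 0.05 and a fold above 2. CPM are counts over TMM-scaled library sizes. With 3 against 3 libraries an exact permutation test cannot go below p = 0.1. The labels call the libraries replicates, and the design text of the series calls them biological.

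Members and lists were chosen with earlier results of these data known. Genes named were the 12 members with most counts, called members with the largest changes, those beside the threshold, the 3 members with most testis counts, called genes of the pathway lists and the most abundant gene of each. Other members and neighbours were named after their values were seen. Gene positions came from GENCODE M21. The tests were checked on simulated counts. Alternatives were filters, RLE, library size alone, DESeq2 1.42.0, a replicate block, no fold threshold, other count minimums and leaving out each library. Deviations of same-numbered sperm libraries had correlations of 0.149, -0.0229 and -0.0809, beside -0.138 to 0.178 for libraries of unlike numbers. These were taken after TMM scaling, so they cannot show a shared feature that scaling removes. R 4.3.3 and Python 3.11.15 were used.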

Additional observations from a re-analysis of the deposited data

Results flagged for a closer look

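Olfr1, an olfactory receptor below the threshold in sperm, was at 0 in all 3 WT testes libraries and at 11, 10 and 26 counts in the cKO ones, a signal outside the members that the WT libraries lacked. Set against a floor of 3 counts in each WT library, it was at least 5.59-fold higher in Xap5 cKO testes. In testes 15 olfactory receptor rows had 60 or more counts, of which 11 are no member.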

How the results depend on the processing

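The 3 members called higher became 5 with DESeq2, 5 without a filter on low counts and 1 with a replicate block, and between 0 and 5 with a library left out. The labels do not say whether the replicate numbers pair the libraries. Under the replicate block Olfr316 kept its call in testes and 3 pathway genes were called there in place of 4. The members' median log2 fold change was -0.03 with at least 10 counts in every library and ranged from 0.40 to 0.82 with a library left out. The 3 pathway genes called in sperm became 5 with DESeq2, 5 with at least 10 counts in every library and 5 without a filter, and between 0 and 5 with a library left out. When replicate 2 or 3 of WT sperm or replicate 2 of Xap5l KO sperm was left out, no member and at most 2 genes in a direction over the whole table were called. In testes no fold threshold gave 1 member higher in place of 0 and 14 pathway genes in place of 4. The share of counts in olfactory receptor rows was 0.00783% in WT and 0.00966% in Xap5l KO sperm outside mitochondrial genes. It was 0.00459% in WT and 0.0063% in Xap5l KO sperm without Olfr733. On plain library totals the genotypes then no longer overlapped, but on TMM-scaled library sizes they did.

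Of 332 values of named genes under an alternative, 277 kept direction and side of the thresholds, 39 lost the call, 1 gained it (Olfr128 with DESeq2) and 15 reversed, in members that were not called. Over the fits with a library left out, the log2 fold change ran from -0.63 to 0.42 for Olfr733, -0.82 to 0.03 for Olfr275, -0.48 to 0.22 for Olfr316, -0.60 to 0.20 for Olfr734, -0.72 to 0.13 for Olfr732, -0.28 to 0.10 for Olfr77 and -0.57 to 0.12 for Olfr731. Without a filter on low counts Olfr77 was at 0.01. The cause was not tested.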

Other observations

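The pattern of Olfr273, high in WT replicate 1, Xap5l KO replicate 1 and Xap5l KO replicate 3 and near 0 in the other 3 sperm libraries, was shared by 1 other row of the table. Pet117, a mitochondrial assembly factor gene, had 57, 1 and 1 counts in WT against 63, 1 and 80 in Xap5l KO sperm. The search was made after Olfr273 was seen and asked for at least 30 counts in each high library and 8 times the highest of the others plus 1. Over 41 arrangements of 1 to 3 high libraries it returned 37 hits, with a row counted under each arrangement that it met. No arrangement of 3 libraries returned more than 2.

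Among members the highest library within WT sperm was replicate 1 in 18, replicate 2 in 13 and replicate 3 in 6, and within Xap5l KO sperm replicate 3 in 19, replicate 1 in 14 and replicate 2 in 4.

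In testes the receptor rows next in counts after Olfr1033 and Olfr316 were Olfr558, with 34, 61 and 30 counts in WT against 85, 83 and 63 in Xap5 cKO testes, and Olfr1034, the numbered neighbour of Olfr1033, with 34, 30 and 29 against 43, 67 and 58. Their log2 fold changes were 0.99 and 0.94 (adjusted p = 0.0508 and 0.0607, edgeR), and neither was called.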
